A study of Mus musculus with 36 samples.

Results

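Sprouty and Spred proteins are inhibitors that cells make in response to receptor tyrosine kinase signalling and that dampen the same signal. The genes Spry1, Spry2, Spry4, Spred1, Spred2 and Spred3 were taken by name, 6 of the 49671 genes in the count table, and all 6 passed the filter on low counts. Spry3 was not analysed here. Messenger RNA levels were measured by RNA sequencing in E14 mouse embryonic stem cells (mESCs), an established line described in the labels by the strain and genotype 129m wt. The cells grew on StemBond hydrogels, polyacrylamide gels to which matrix protein is tethered covalently, that were soft or stiff, or on tissue culture plastic. After 24 h in serum + LIF there were 3 libraries each from soft and stiff gels. After 48 h there were 3 libraries each from soft, stiff and plastic in serum + LIF. Soft and stiff gels were further sampled after 48 h in serum, with 3 libraries each, and in serum + LIF + PD03, with 3 libraries each. In serum + PD03 at 48 h there were 6 soft and 3 stiff libraries. LIF is a cytokine that acts through STAT3 to keep mESCs self-renewing, PD03 is an inhibitor of MEK, and serum was present in all 11 groups. Nothing in the labels says whether the libraries of a group came from separate cultures, so the p-values measure the spread between these libraries, which may be technical. All of them come from a single cell line.

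When a growth factor such as FGF binds its receptor, adaptor proteins activate Ras, and Ras starts the RAF, MEK and ERK kinase cascade. Active ERK switches on genes for inhibitors of that pathway, and the Sprouty and Spred genes are a well-known set of them. Both protein families share a cysteine-rich Sprouty domain. Spred proteins carry in addition an EVH1 domain, and Spred1 and Spred2 bring the Ras GTPase-activating protein neurofibromin to the plasma membrane. In mESCs, FGF4 made by the cells themselves activates ERK and primes the cells to leave the naive state.

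The DNA just upstream of these genes shows whether they share letters known from ERK-controlled promoters. RefSeq promoter windows on build GRCm38.p6, matched by symbol, were examined for 5 of the 6 genes (Spry1, Spry2, Spred1, Spred2 and Spred3). Each window held 250 bases before and 50 after the start. Spry4 was left out of this search, so the motif results do not cover it, and whether RefSeq holds a window for it is not stated here. Capicua (CIC), a repressor that ERK signalling relieves, binds octamers, of which TGAATGAA, TGAATGGA, TCAATGAA and TCAATGGA were searched on both strands. The Spry2 window held TCAATGAA on its minus strand, 54 bases before the start, and the Spred3 window held TGAATGAA, 10 bases before the start. Among all 32851 windows, 3.835% held any of these octamers. The ETS letters CCGGAAGT, found in 3.887% of all windows, and the AP-1 letters TGACTCA, found in 5.202%, were in none of the 5 windows. These motifs do not overlap in letters. The 250 upstream bases are shown for the pair of genes with an octamer, in capitals, and for Spred1, which had no match and the highest GC content, 70.8%. Over the 5 genes the GC content of these bases ranged from 55.6% in Spred3 to 70.8%, and CpG dinucleotides from 6 to 31. Spry2 lies on chr14:105896820-105897069 (minus strand), Spred3 on chr7:29168648-29168897 (minus strand) and Spred1 on chr2:117120821-117121070 (plus strand), each written 5′ to 3′ toward its start. The start used by RefSeq for Spred1 and Spred3 is not the outermost start of the gene in the GENCODE annotation.
Spry2: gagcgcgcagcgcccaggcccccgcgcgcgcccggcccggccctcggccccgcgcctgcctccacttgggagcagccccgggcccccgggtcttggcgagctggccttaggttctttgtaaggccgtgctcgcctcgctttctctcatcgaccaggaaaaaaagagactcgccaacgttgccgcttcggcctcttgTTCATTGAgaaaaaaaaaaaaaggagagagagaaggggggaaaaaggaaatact
Spred3: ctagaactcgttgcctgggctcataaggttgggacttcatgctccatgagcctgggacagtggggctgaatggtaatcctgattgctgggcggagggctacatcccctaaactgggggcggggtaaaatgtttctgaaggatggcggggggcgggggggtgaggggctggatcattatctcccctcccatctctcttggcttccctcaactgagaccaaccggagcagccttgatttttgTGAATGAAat
Spred1: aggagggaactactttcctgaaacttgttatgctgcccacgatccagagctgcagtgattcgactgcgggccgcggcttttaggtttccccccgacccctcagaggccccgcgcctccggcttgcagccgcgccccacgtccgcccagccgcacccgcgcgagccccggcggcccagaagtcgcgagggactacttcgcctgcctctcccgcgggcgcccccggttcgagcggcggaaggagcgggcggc

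Total counts ranged from 10405696 to 26635239 per library. At 24 h the soft libraries held 11124741 to 16539932 counts and the stiff libraries 19857202 to 22530889. All 6 markers of embryonic stem cells (Pou5f1, Sox2, Nanog, Zfp42, Esrrb and Sall4) were counted in every library, with summed levels of 2630 to 3240 CPM (read counts scaled to the size of the library) without PD03 and 3820 to 4440 CPM with it. The 6 fibroblast markers summed to 24.5 to 83.9 CPM without PD03 and 34 to 99.2 CPM with it, and in each of the 5 combinations of medium and time their sum was higher in all stiff than in all soft libraries, and that of the stem cell markers lower. The 5 trophoblast markers summed to 19.5 to 54.9 CPM without PD03 and 98.3 to 158 CPM with it, with Gata3 highest at 7.65 to 113 CPM. The 4 mesoderm and streak markers summed to 3.99 to 9.4 CPM without PD03 and 1.28 to 2.61 CPM with it, and the 6 primitive endoderm markers to 17.4 to 41.5 CPM over all libraries. Mesp1 was at 0 in 20 libraries, and Postn and Elf5 in 3 each. In bulk RNA, fewer cells with a transcript and less of it per cell cannot be told apart.

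The 6 genes were all transcribed in every library, at levels that differed widely between genes and split into a high and a low range by the presence of PD03. Spry4 (ENSMUSG00000024427, chromosome 18, 38586247 to 38601415, minus strand) had group means of 110.4 to 137 CPM in the 7 groups without PD03 and of 0.573 to 1.17 CPM in the 4 groups with it. Spred2 (ENSMUSG00000045671, chromosome 11, 19924375 to 20024026, plus strand) had means of 143 to 159.5 CPM without and 69.7 to 82.7 CPM with PD03. The gap between the ranges was therefore very wide for Spry4 and narrow for Spred2.

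Of the other Sprouty genes, Spry2 (ENSMUSG00000022114, chromosome 14, 105891947 to 105896819, minus strand) had means of 78.2 to 89.5 CPM without PD03 and 16.8 to 21.1 CPM with it. Spry1 (ENSMUSG00000037211, chromosome 3, 37639947 to 37644598, plus strand) lay lower, with means of 21.5 to 32.2 CPM and 3.55 to 5.09 CPM. Spred1 (ENSMUSG00000027351, chromosome 2, 117121374 to 117182279, plus strand) had means of 75.4 to 108 CPM and 9.83 to 11.6 CPM. Spred3 (ENSMUSG00000037239, chromosome 7, 29158829 to 29170411, minus strand) was the lowest of the 6 without PD03, with means of 8.57 to 12.2 CPM, against 2.52 to 3.37 CPM with PD03. All coordinates are on GRCm38, and all 6 genes are protein coding. An uncharacterised gene, Gm42922, shares 710 exonic bases with Spry1 on the opposite strand and had at most 17 counts in a library. Ggn shares 202 exonic bases with Spred3 on the opposite strand and had at most 30 counts. The strand setting of the counting was not stated, so reads from these shared stretches cannot be told apart.

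**Figure D1:**
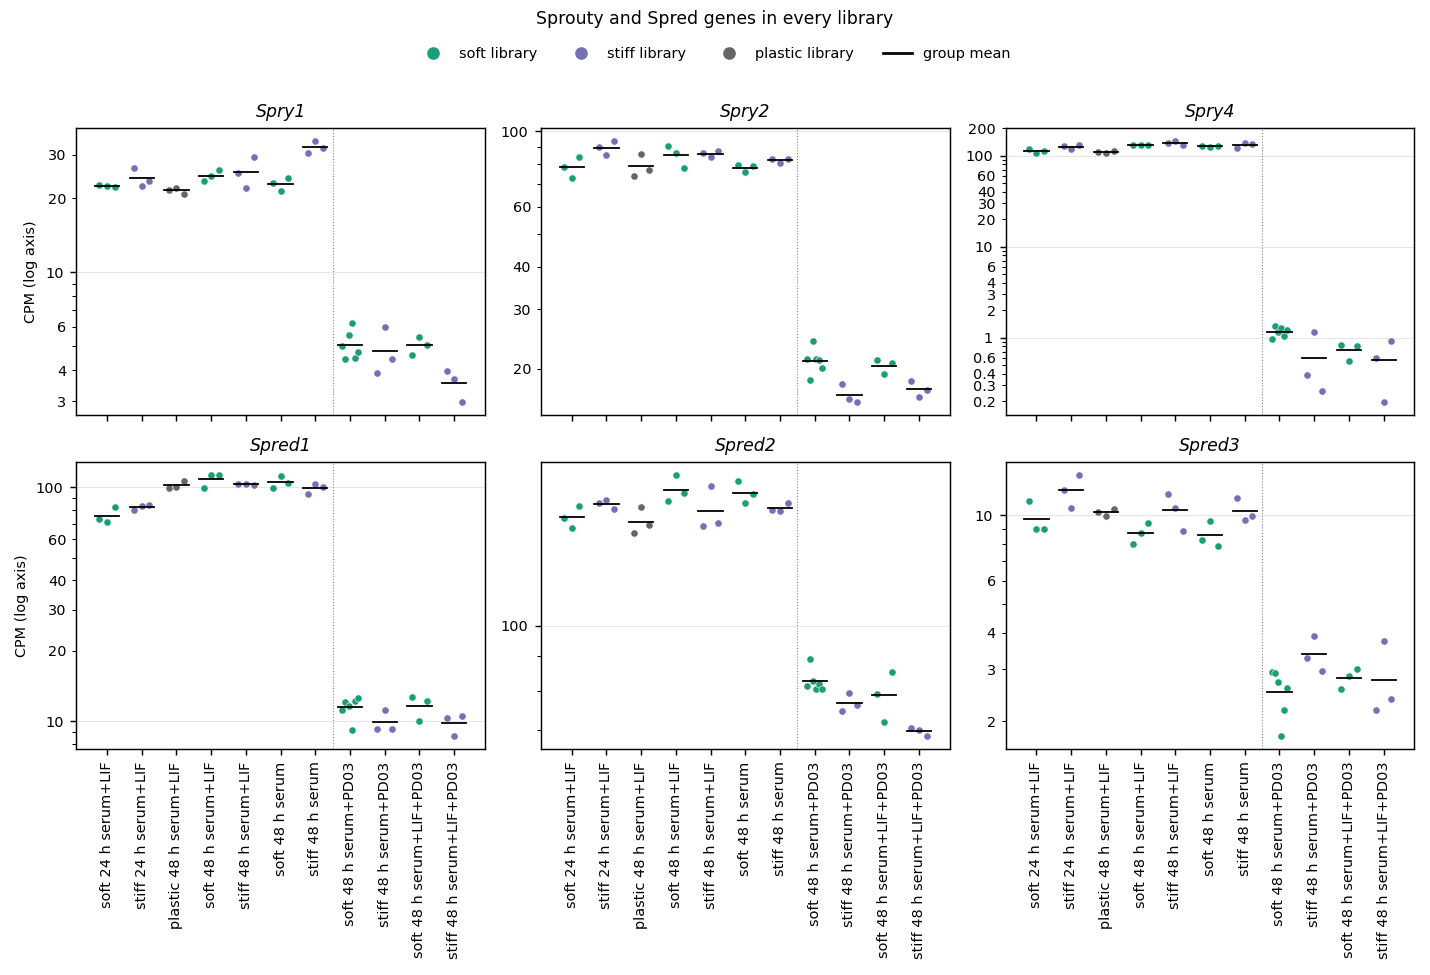
Each panel plots the CPM of 1 gene on a log axis in all 36 libraries (points, coloured by substrate) with the mean of each of the 11 groups (bars), and the dotted line separates groups without PD03 (left) from those with it (right). Every gene is lower in all libraries to the right of the line, with Spry4 going from 106 to 144 CPM down to 0.197 to 1.36 CPM.

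Within the 7 groups without PD03 the order of the means was loose. The ratio of the highest to the lowest mean was 1.12 for Spred2, 1.15 for Spry2, 1.24 for Spry4, 1.42 for Spred3, 1.43 for Spred1 and 1.5 for Spry1. For Spry2, Spry4, Spred2 and Spred3, the libraries of all neighbouring groups in this order overlapped, so neighbours did not differ beyond their spread. Spry1 was highest on stiff gels in serum, clear of the next group, stiff gels in serum + LIF. It was lowest on plastic, just below soft gels at 24 h without overlap. Spred1 had its lowest means in both 24 h groups, below and clear of the 48 h groups. With PD03, neighbouring groups did not overlap between soft serum + PD03 and soft serum + LIF + PD03 for Spry4, between soft and stiff serum + LIF + PD03 for Spry2, and between stiff serum + PD03 and stiff serum + LIF + PD03 for Spred2. All other neighbours with PD03 overlapped.

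Levels can be compared between genes per kilobase of exon, here the summed exon length of the gene, which is 2087 bp for Spry2 and 6784 bp for Spred1. On this scale Spry2 was the most abundant without PD03, with group means of 37.5 to 42.9 CPM per kb. Spred2 followed with 30.9 to 34.5 and Spry4 with 23.2 to 28.8 CPM per kb. Spred1 had 11.1 to 15.9, Spry1 7.40 to 11.1 and Spred3 1.38 to 1.96 CPM per kb. With PD03 the order changed. Spred2 became the most abundant at 15.1 to 17.9 CPM per kb, ahead of Spry2 at 8.04 to 10.1 CPM per kb. Spry4 fell to the last place at 0.120 to 0.245 CPM per kb.

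The summed level of the 6 genes was 113 to 129 CPM per kb in the groups without PD03 and 26.7 to 32.1 CPM per kb in those with it. Spred2 made up 25.1% to 27.8% of the sum without PD03 and 55.2% to 58.5% with it. The share of Spry4 went from between 20% and 22.5% to between 0.441% and 0.764%. The pool of Sprouty and Spred transcripts was thus smaller with PD03 and mostly Spred2.

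**Figure D2:**
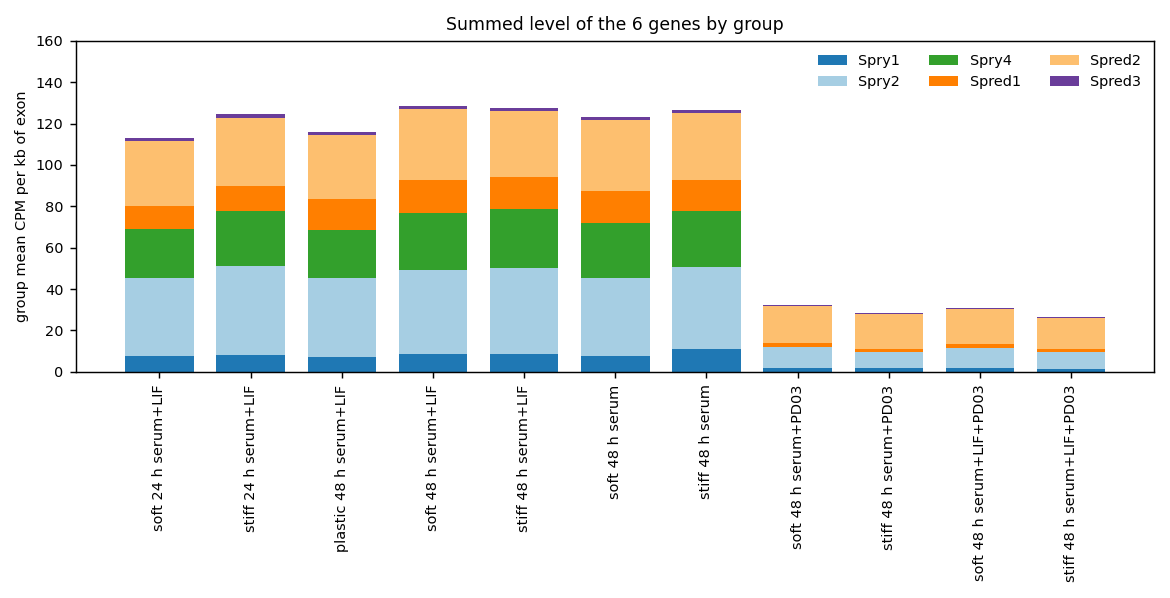
Stacked bars give the group mean level of each of the 6 genes in CPM per kb of exon for the 11 groups. The bars without PD03 reach 113 to 129 CPM per kb and those with PD03 26.7 to 32.1, where the Spred2 segment fills more than the other 5 genes together.

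The clearest contrast was the addition of PD03. All 6 genes fell with PD03 on both substrates, with and without LIF, by edgeR's quasi-likelihood test with Benjamini-Hochberg adjustment over the 17702 genes tested. Of all genes tested, 54.4% were called in either direction on soft gels with LIF and 26.6% were called lower. The values were 56.2% and 27.8% lower on stiff gels with LIF, 57.5% and 28.5% lower on soft gels without LIF, and 55.8% and 27.4% lower on stiff gels without LIF. The median log2 fold change of the 6 genes ranged from -2.58 to -2.02 over the 4 comparisons, and that of all genes tested from -0.0104 to 0.00873. In no comparison did any library with PD03 reach a library without it, for any of the 6 genes. Of all genes tested, 57% did not overlap between these groups on soft and 62.9% on stiff gels with LIF, and 50.6% on soft and 61.1% on stiff gels without LIF. The summed trophoblast and stem cell markers were higher, and the summed mesoderm and streak markers lower, in all libraries with PD03 than in all without it. Within each of the 4 comparisons the summed fibroblast markers were also higher in all libraries with PD03. On stiff gels with LIF they were at 92.7 to 99.2 CPM with it and 35 to 42.9 CPM without it. The primitive endoderm markers were lower without overlap in each comparison except stiff gels without LIF (19.5 to 27.9 against 27 to 32 CPM). The part of these marker lists in the falls was not tested.

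Spry4, an intracellular inhibitor that acts on the way from the receptor to Ras and RAF, fell most. In serum + LIF on soft gels it was at 130.4, 131 and 131 CPM without PD03 and at 0.826, 0.548 and 0.817 CPM with it. On stiff gels it was at 137, 144 and 129.5 CPM without and at 0.596, 0.197 and 0.925 CPM with PD03. The libraries without PD03 lay close together, while those with PD03 differed several-fold among themselves on stiff gels, where counts were few. In serum on soft gels, the levels were 128, 123 and 127 CPM, and in serum + PD03 the lowest, median and highest of 6 libraries were 0.966, 1.19 and 1.36 CPM. In serum on stiff gels they were 121, 136 and 134 CPM, and in serum + PD03 0.384, 1.15 and 0.257 CPM. Of the stiff serum + PD03 libraries, the second was well above the others.

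The log2 fold changes of Spry4 with PD03 were -7.48 ± 0.13 (SE) on soft and -7.82 ± 0.13 on stiff gels with LIF, and -6.77 ± 0.10 on soft and -7.56 ± 0.14 on stiff gels without LIF (edgeR adjusted p = 2.81e-41, 7.23e-42, 1.13e-45 and 3.45e-41). This is 178-fold, 227-fold, 109-fold and 189-fold lower. Among the 17702 genes tested, ranked from the most negative fold change, Spry4 was at places 2, 1, 4 and 5. Its level with PD03 rested on 4 to 28 counts per library, so the size of the fall is known less well than its direction.

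Spred1, which restrains Ras through neurofibromin, fell next most. In serum + LIF on soft gels it was at 98.9, 113 and 112 CPM without PD03 and at 12.6, 10.01 and 12.2 CPM with it. On stiff gels it was at 103, 103 and 102 CPM without and at 10.3, 8.65 and 10.5 CPM with PD03. The groups were far apart, and the 3 libraries of each group lay close together. The log2 fold changes were -3.22 ± 0.08 and -3.38 ± 0.08 on soft and stiff gels with LIF, and -3.20 ± 0.07 and -3.30 ± 0.09 without LIF, or 9.30-, 10.4-, 9.19- and 9.87-fold lower (edgeR adjusted p of at most 4.78e-35).

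Spry1 and Spry2, the other Sprouty genes, fell 4.45- to 7.26-fold and 3.67- to 4.94-fold. For Spry1 in serum + LIF, the soft libraries were at 23.4, 24.7 and 25.96 CPM without PD03 and at 4.61, 5.48 and 5.07 CPM with it. The stiff libraries were at 25.2, 21.9 and 29.3 CPM without and at 3.97, 3.69 and 2.98 CPM with PD03. Soft libraries with PD03 were thus above stiff ones, while those without PD03 overlapped. The log2 fold changes of Spry1 were -2.29 ± 0.12 on soft and -2.86 ± 0.13 on stiff gels with LIF, and -2.16 ± 0.10 and -2.71 ± 0.12 without LIF. Those of Spry2 were -2.05 ± 0.07 and -2.30 ± 0.07 with LIF, and -1.88 ± 0.06 and -2.30 ± 0.07 without LIF. The edgeR adjusted p of these 8 changes was at most 3.74e-22.

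Spred3 and Spred2 fell least. Spred3 is a Spred protein whose Kit-binding region is not functional. It had log2 fold changes of -1.64 ± 0.17 and -1.91 ± 0.17 on soft and stiff gels with LIF and of -1.77 ± 0.14 and -1.61 ± 0.16 without LIF (edgeR adjusted p of at most 9.13e-12). Spred2, a second Spred that binds neurofibromin, was at 153, 168 and 158 CPM on soft gels in serum + LIF and at 79.1, 72.0 and 85.2 CPM after PD03 was added. On stiff gels these values were 141, 161 and 142 CPM without and 70.5, 70.1 and 68.6 CPM with PD03. All libraries with PD03 were below all libraries without it, by a smaller margin than for the other genes. The log2 fold changes of Spred2 were -1.02 ± 0.05 and -1.08 ± 0.05 with LIF and -0.94 ± 0.05 and -0.96 ± 0.05 without LIF, that is, 1.91- to 2.12-fold lower (edgeR adjusted p of at most 4.91e-21).

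**Figure D3:**
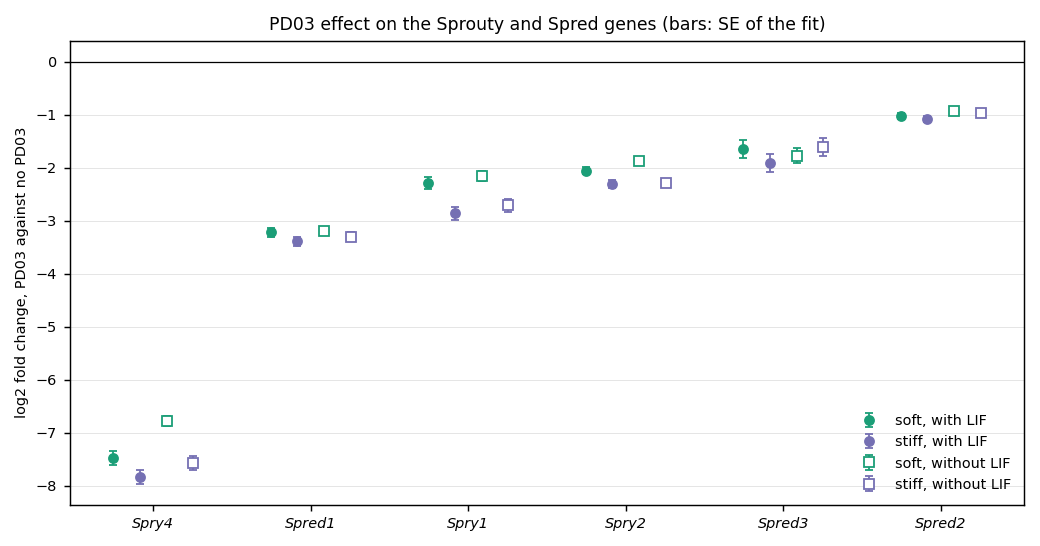
Points give the log2 fold change of each gene with PD03 against no PD03, with bars for the SE of the fit, on soft (green) and stiff (violet) gels with LIF (filled circles) and without LIF (open squares). Spry4 stands between -7.82 and -6.77, Spred1 near -3.3, and Spred2 near -1.

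Other genes around the same pathway were grouped in 5 lists. Each change named here had an edgeR adjusted p under the threshold of 0.05. Of all genes tested, 27.8% were called higher with PD03 on soft and 28.3% on stiff gels with LIF. Without LIF these shares were 29% on soft and 28.4% on stiff gels. The shares called lower are given above. Of 11 other ERK feedback genes, 7 fell and 1 rose with PD03 on soft gels with LIF, 8 fell and 1 rose on stiff gels with LIF, 7 fell and 1 rose on soft gels without LIF, and 10 fell and 1 rose on stiff gels without LIF. The median log2 fold change of this list ranged from -0.759 to -0.457. Dusp6 and Dusp4, phosphatases that act on ERK, fell by 2.74 and 2.82 on the log2 scale on soft gels with LIF. That is less than Spred1 and more than Spry1 in the same comparison. Lrig1, a membrane protein that restrains receptor kinases, rose by 1.19 to 1.34 on the log2 scale. No Sprouty or Spred gene rose.

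Of 15 ERK-induced factors, 10 fell and 2 rose with PD03 in 3 of the comparisons, and 9 fell and 2 rose on soft gels without LIF. Etv4, an ETS transcription factor, had log2 fold changes of -5.62 on soft and -6.27 on stiff gels with LIF and of -5.22 and -5.64 without LIF. Those of Egr1, an immediate early factor, were -4.86, -5.17, -5.09 and -4.73. Spry4 fell further than either in all 4 comparisons.

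The 21 adaptor and Ras-ERK cascade genes went both ways, with 10 higher in each comparison and 6 lower, or 8 lower on soft gels without LIF, and medians of -0.00251 to 0.0593. Of 13 FGF ligands, receptors and related receptors, 5 were higher and 5 lower with PD03 in both comparisons with LIF, 4 higher and 6 lower on soft gels without LIF, and 5 higher and 4 lower on stiff gels without LIF. Fgf4, the ligand mentioned above, rose by 1.10 to 1.34 on the log2 scale. Of 13 Ras GTPase-activating proteins and Sprouty partners, 1 rose and 3 fell on soft gels with LIF, 3 rose and 4 fell on stiff gels with LIF, 2 rose and 5 fell on soft gels without LIF, and 3 rose and 4 fell on stiff gels without LIF. These counts were unstable. The 3 that rose on stiff gels with LIF were 1 without the second library of either group, and the 1 that rose on soft gels with LIF was 2 without the second serum + LIF library. On soft gels without LIF, 4 rose without the second serum + PD03 library and 1 without the third serum library. On stiff gels without LIF, 2 fell without the first library of either group. In models with a term for the sequencing pool, over the 45 assignments of libraries to pools that the labels allow, as few as 1 rose on stiff gels with LIF, and up to 5 rose and as few as 3 fell on soft gels without LIF. The 8 cascade genes that were lower on soft gels without LIF were 5 at the fewest with that term.

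Nf1, which encodes neurofibromin, had log2 fold changes of 0.13 ± 0.08 on soft and 0.18 ± 0.08 on stiff gels with LIF, and of 0.14 ± 0.07 on soft and 0.30 ± 0.08 on stiff gels without LIF (edgeR adjusted p = 0.145, 0.0374, 0.073 and 0.000807). It thus rose on stiff gels. With LIF the call was lost without the first or second serum + LIF library (0.13 and 0.19, edgeR adjusted p = 0.203 and 0.0626) or without the second or the third serum + LIF + PD03 library (0.19 and 0.16, edgeR adjusted p = 0.0535 and 0.122), and with the pool term it was made in 15 of 45 assignments. Nf1 was called lower in none of the 4 comparisons, while Spred1 and Spred2 fell in each.

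**Figure D4:**
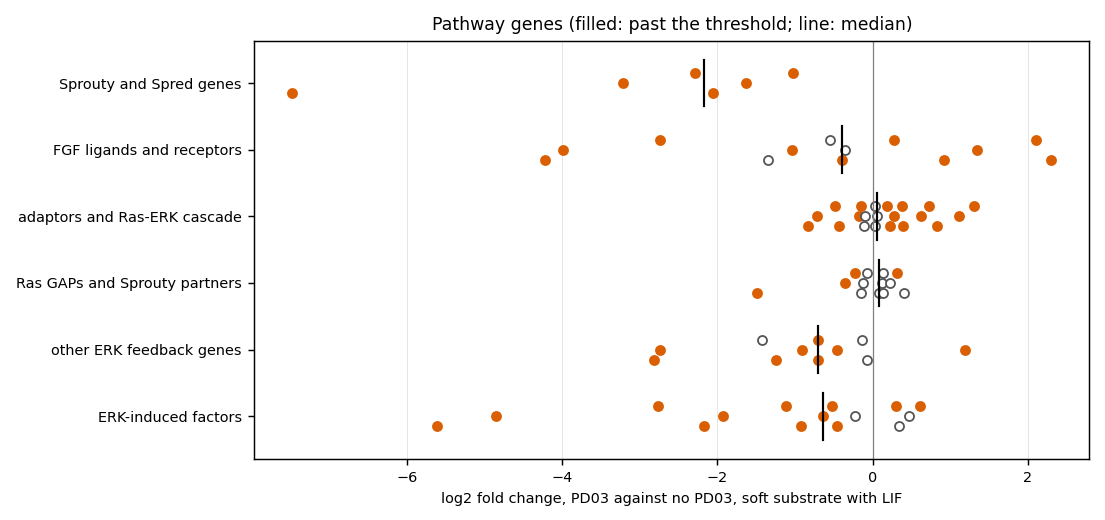
For the soft gels with LIF, each point is the log2 fold change of a gene with PD03 against no PD03, filled where the edgeR adjusted p was under 0.05, in rows for the 6 Sprouty and Spred genes and for the 5 lists; the black bar is the median of a row. The Sprouty and Spred row holds only filled points below 0 with a median of -2.17, against medians of -0.708 for the other feedback genes and 0.0593 for the cascade genes.

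The question at the centre of the design was whether stiffness changes expression. In 24 h serum + LIF, where soft and stiff libraries were sequenced in the same pool, none of the 6 genes passed the threshold in edgeR, 3 had an unadjusted p under 0.05, and DESeq2 also called 0. Of all genes tested, 3.55% were called. Shares of all genes called are those of edgeR throughout. The share of all genes called by DESeq2, or with an unadjusted p under 0.05, was not determined for any comparison. Such counts of members therefore have no background beside them. All 6 fold changes were below 0, with a median of -0.141 on the log2 scale, against -0.00157 for all genes tested. Spry2 was at 78.3, 73.1 and 84.0 CPM on soft and at 89.6, 85.4 and 93.5 CPM on stiff gels. These libraries did not overlap, which held for 1 of the 6 genes here and for 17.1% of all genes tested. Its log2 fold change was -0.19 ± 0.06 (edgeR adjusted p = 0.086). At the same time, 4 of the 11 other feedback genes fell on soft gels, among them Dusp4 by 0.453 on the log2 scale, and that count was 1 without the third soft library. Soft libraries were shallower at this time. The summed fibroblast and trophoblast markers were higher on stiff gels, at 53.8 to 61.2 and 49.1 to 54.9 CPM against 26.6 to 38.8 and 33.5 to 40.5 CPM, and the stem cell markers lower. The part of depth or of these markers was not tested.

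At 48 h, substrate and sequencing pool coincided in nearly all libraries. A pool term was therefore added to the model as an alternative. The columns do not tell which library of a divided group was in which pool, and all 45 assignments that the labels allow were fitted. In serum + LIF, 0 of the 6 genes passed the threshold in edgeR, 1 had an unadjusted p under 0.05, and DESeq2 called 0, where 0.78% of all genes were called. The 95% intervals of the log2 difference between soft and stiff were -0.25 to 0.15 for Spry1, -0.14 to 0.10 for Spry2 and -0.20 to 0.07 for Spry4. Those of the Spred genes were -0.06 to 0.20 for Spred1, 0.01 to 0.21 for Spred2 and -0.54 to 0.04 for Spred3.

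In serum without LIF, Spry1 fell on soft gels. It was at 23.1, 21.3 and 24.1 CPM on soft and at 30.4, 34.04 and 32.1 CPM on stiff gels. The groups were well apart, with the stiff libraries the highest for Spry1 in the data set. The log2 fold change was -0.49 ± 0.10 (edgeR adjusted p = 0.000686), or 1.41-fold lower, and it kept its call when any single library was left out. With a pool term it ranged from -0.76 to -0.17 and was called in 8 of 45 assignments. The other 5 genes did not pass the threshold, so 1 of 6 was called, where 4.85% of all genes were. Spry2 and Spred3 also did not overlap between substrates, with log2 fold changes of -0.07 ± 0.06 and -0.28 ± 0.14 (edgeR adjusted p = 0.637 and 0.332). So 3 of 6 genes did not overlap, as did 20.4% of all genes tested. Fibroblast markers summed to 24.5 to 31.5 CPM on soft and 50.1 to 55.8 CPM on stiff gels, mesoderm and streak markers to 7.01 to 8.97 and 5.75 to 6.52 CPM, and stem cell markers to 3000 to 3090 and 2630 to 2850 CPM. Their part in these differences was not tested. Of the 11 other feedback genes, 4 fell on soft gels, among them Dusp1, Dusp4 and Errfi1, which encodes a feedback inhibitor of the EGF receptor. That count ranged from 0 to 4 with a pool term.

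With PD03, where each of these genes was at a lower level than without it, some were higher on soft gels. In serum + PD03, Spry2 was at 18.5, 21.3 and 24.2 CPM (lowest, median and highest of 6) on soft and at 18, 16.3 and 15.99 CPM on stiff gels. The lowest soft library was just above the highest stiff one. The log2 fold change was 0.35 ± 0.07 (edgeR adjusted p = 0.000868), which remained called when any single library was left out. With a pool term it ranged from 0.22 to 0.45 and was called in 24 of 45 assignments. In this medium 1 of 6 genes was called, where 5.55% of all genes were, and 5 of 6 had an unadjusted p under 0.05. Marker sums differed between the substrates as well. On soft and stiff gels, trophoblast markers summed to 98.3 to 108 and 129 to 133 CPM, stem cell markers to 4230 to 4420 and 3920 to 3980 CPM, and fibroblast markers to 35.8 to 48.3 and 74.2 to 83.9 CPM. Their part in these differences was not tested.

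Spry4 in serum + PD03 was higher on soft gels by 0.75 ± 0.28 on the log2 scale (edgeR adjusted p = 0.119) and did not pass the threshold. Without the second stiff library, which held 1.15 CPM against 0.384 and 0.257 CPM in the others, the difference was 1.82 and passed (edgeR adjusted p = 0.00133). The groups overlapped only through that library. Spred2 and Spred3 did not overlap between substrates in this medium, with log2 fold changes of 0.10 ± 0.05 and -0.44 ± 0.17 (edgeR adjusted p = 0.25 and 0.12). With Spry2, 3 of 6 genes did not overlap, as did 11.6% of all genes tested. Spred3 was the only one of the 6 with a value below 0 here.

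In serum + LIF + PD03, edgeR called 2 of 6 genes higher on soft gels and called 7.61% of all genes, while DESeq2 called 3 of 6. An unadjusted p under 0.05 was reached by 4 of 6. Spry1 was at 4.61, 5.48 and 5.07 CPM on soft and at 3.97, 3.69 and 2.98 CPM on stiff gels, with a log2 fold change of 0.52 ± 0.15 (edgeR adjusted p = 0.0206). The sign is opposite to that in serum, a medium that differs from this one in both LIF and PD03. Spry1 was not called in serum + LIF (-0.05 ± 0.10, edgeR adjusted p = 0.91) or in serum + PD03 (0.06 ± 0.13, edgeR adjusted p = 0.866). Spred2, with the libraries given above, had a log2 fold change of 0.18 ± 0.06 (edgeR adjusted p = 0.0386). The lowest soft library was just above the highest stiff one. Spry2 was at 21.2, 19.3 and 20.8 CPM on soft and at 18.4, 16.5 and 17.3 CPM on stiff gels, again without overlap, with a log2 fold change of 0.23 ± 0.08 (edgeR adjusted p = 0.0607). In all, 3 of 6 genes did not overlap, as did 24.8% of all genes tested. On soft and stiff gels in this medium, trophoblast markers summed to 113 to 114 and 142 to 158 CPM, stem cell markers to 4280 to 4440 and 3820 to 3890 CPM, and fibroblast markers to 34 to 48.9 and 92.7 to 99.2 CPM, and their part in these differences was not tested.

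Both calls in serum + LIF + PD03 depended on single libraries. Spry1 lost its call without the third stiff library (0.40, edgeR adjusted p = 0.19), the second soft library (0.46, edgeR adjusted p = 0.124) or the third soft library (0.52, edgeR adjusted p = 0.061). Spred2 kept its call only when the second soft library was left out, and its value was lowest, 0.11, without the third soft library (edgeR adjusted p = 0.371). Without the first or second stiff library it was 0.18, without the third 0.16 and without the first soft library 0.17 (edgeR adjusted p = 0.105, 0.106, 0.156 and 0.104). With a pool term, Spry1 was called in 5 and Spred2 in 0 of 45 assignments. In this medium, 5 of the 11 other feedback genes fell on soft gels, so the Sprouty and Spred genes called here and those feedback genes moved in opposite directions. That count of 5 was 3 without the third stiff library and ranged from 0 to 5 with a pool term.

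**Figure D5:**
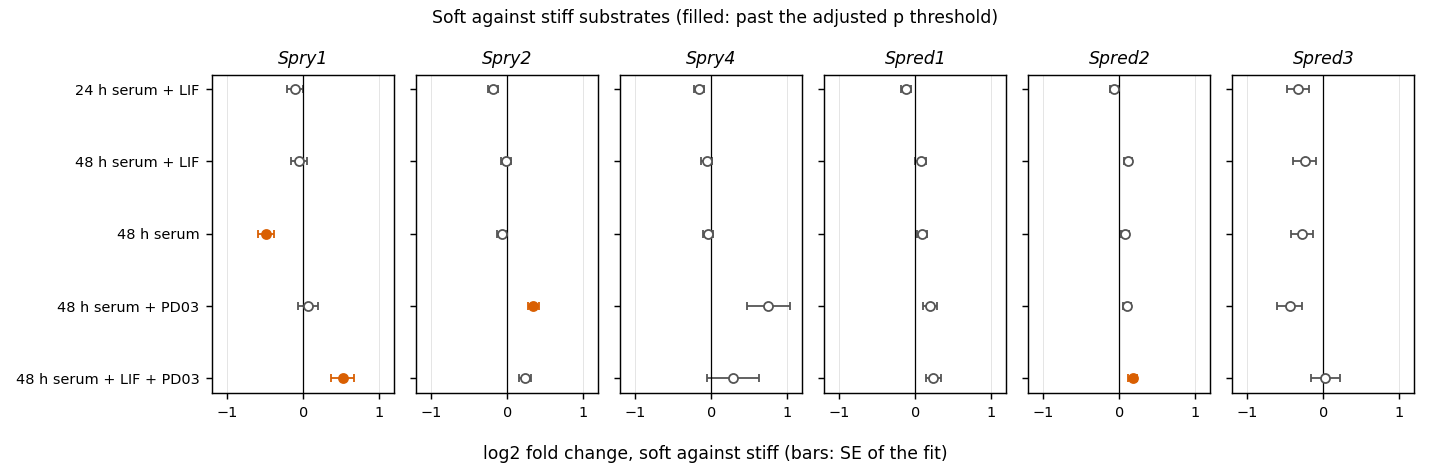
For each gene, points give the log2 fold change of soft against stiff in 5 combinations of medium and time, with bars for the SE of the fit, in orange where the edgeR adjusted p was under 0.05. Orange points are Spry1 in serum (-0.49), Spry2 in serum + PD03 (0.35), and Spry1 (0.52) and Spred2 (0.18) in serum + LIF + PD03.

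Whether the substrate difference depended on PD03 was tested as an interaction, the soft against stiff log2 difference with PD03 minus that without it. Without LIF, Spry2 passed with 0.42 ± 0.09 (edgeR adjusted p = 0.0168), so it fell less with PD03 on soft than on stiff gels. It was the only one of 6 called by edgeR, which called 0.797% of all genes, while DESeq2 called 2 of 6. Its call was lost without the second soft library in serum (0.39, edgeR adjusted p = 0.0814), or without the second or the third stiff library in serum + PD03 (0.39 each, edgeR adjusted p = 0.0793 and 0.0837). With a pool term it was called in 33 of 45 assignments.

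Spry1 had an interaction of 0.55 ± 0.16 without LIF (edgeR adjusted p = 0.092) and of 0.57 ± 0.18 with LIF (edgeR adjusted p = 0.143). The first was called by DESeq2 (adjusted p = 0.0311), and without the second stiff library in serum + PD03 it was 0.78 (edgeR adjusted p = 0.0206). Without that library the interaction of Spry4, 0.79 ± 0.29 in the full data, was 1.85 (edgeR adjusted p = 0.00737). With LIF, 0 of 6 genes passed in edgeR, 2 had an unadjusted p under 0.05, DESeq2 called 0, and 1.07% of all genes were called. All 6 interactions with LIF were above 0, with a median of 0.262, against 0.00273 for all genes tested. Without LIF, 5 of 6 were above 0, with a median of 0.26, against 0.000423 for all genes tested. The 6 genes were measured in the same libraries, so their signs are not separate tests.

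Plastic was compared with both gels in serum + LIF at 48 h. Spry4 was at 111.0, 106 and 114 CPM on plastic, below all soft and all stiff libraries. It was higher on soft gels by 0.25 ± 0.07 and on stiff gels by 0.31 ± 0.07 on the log2 scale (edgeR adjusted p = 0.0116 and 0.00226). The first call was lost without the second plastic library (0.23, edgeR adjusted p = 0.053). Spred2 was at 137, 150.0 and 141 CPM on plastic, lower than all soft libraries, and was higher on soft gels by 0.16 ± 0.05 (edgeR adjusted p = 0.0396). That call was lost without the first plastic, the third plastic or the second soft library (0.15, 0.17 and 0.12, edgeR adjusted p = 0.138, 0.0796 and 0.215). In all, 2 of 6 genes were called between soft gels and plastic, where 11.8% of all genes were, and 1 of 6 between stiff gels and plastic, where 5.54% were. The libraries of 4 of 6 genes did not overlap between soft gels and plastic, as for 24.7% of all genes, and those of 1 of 6 between stiff gels and plastic, as for 22.7%. Soft and plastic libraries were in different pools. With a pool term, Spry4 was called in 0 and Spred2 in 5 of 45 assignments between soft and plastic, and Spry4 in 15 between stiff and plastic. The fibroblast markers summed to 72.1 to 83.9 CPM on plastic and to 27.9 to 42.9 CPM on the gels in this medium. Stem cell markers, at 2660 to 2770 CPM, and primitive endoderm markers, at 20.7 to 22 CPM, were lower on plastic than in all of these gel libraries. So were mesoderm and streak markers, at 4.42 to 5.57 CPM. Trophoblast markers, at 37.7 to 41.4 CPM, were higher on plastic than in all of these gel libraries. The part of these marker lists in the differences was not tested.

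LIF had no called effect on the 6 genes in edgeR. On soft gels without PD03, 0 of 6 passed, 0 had an unadjusted p under 0.05, DESeq2 called 0, and 0.0169% of all genes were called. On stiff gels without PD03, 0 passed, 1 had an unadjusted p under 0.05, DESeq2 called 1, and edgeR called 1.41% of all genes. On soft gels with PD03 these values were 0, 1, 0 and 0.107%, and on stiff gels with PD03 0, 2, 0 and 0.514%. The gene called by DESeq2 was Spry1, which was at 30.4, 34.04 and 32.1 CPM in serum and at 25.2, 21.9 and 29.3 CPM in serum + LIF on stiff gels. The libraries did not overlap, which held for 2 of 6 genes and for 16.9% of all genes tested. The log2 fold change with LIF was -0.33 ± 0.10 (edgeR adjusted p = 0.0962; DESeq2 adjusted p = 0.0366), and without the third stiff library in serum + LIF it was -0.46 (edgeR adjusted p = 0.0228). The difference of the LIF effect between soft and stiff gels was called for 0 of 6 genes without PD03, with 1 at an unadjusted p under 0.05, where 0.0847% of all genes were called. With PD03 these values were 0, 1 and 0.00565%. DESeq2 called 0 in both.

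Spred1 rose between 24 h and 48 h in serum + LIF. On soft gels the libraries of the earlier time held 72.8, 71.0 and 82.4 CPM and those of the later time 98.9, 113 and 112 CPM. On stiff gels these values were 79.6, 83.0 and 84.2 CPM early and 103, 103 and 102 CPM late. The times did not overlap on either substrate. The log2 fold changes were 0.52 ± 0.07 (edgeR adjusted p = 1.06e-07) on soft and 0.32 ± 0.07 (edgeR adjusted p = 0.000207) on stiff gels, and both passed when any single library was left out. On plastic at 48 h Spred1 was at 99.1, 100.2 and 106 CPM, within the range of the gels at that time. The difference between the time effects on soft and stiff was called for 0 of 6 genes in edgeR, with 1 at an unadjusted p under 0.05 and 0 in DESeq2, where 0.254% of all genes were called.

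Spry4 rose with time on soft gels by 0.22 ± 0.07 on the log2 scale (edgeR adjusted p = 0.0158), from 117, 108 and 113 CPM to the values given above. All 48 h libraries were above all 24 h libraries. The call was lost without the second soft library at 24 h (0.20, edgeR adjusted p = 0.0731). In all, 2 of 6 genes were called over time on soft gels, where 24.4% of all genes were, and 1 of 6 on stiff gels, where 25.6% were, so the shares of members were close to or below those of all genes. The times did not overlap for 4 of 6 genes on soft gels, where this held for 33.7% of all genes, and for 1 of 6 on stiff gels, where it held for 38.2%. Trophoblast markers summed to 33.5 to 40.5 CPM early and 19.5 to 27.7 CPM late on soft gels, and to 49.1 to 54.9 and 28.1 to 32.5 CPM on stiff gels. On soft gels, mesoderm and streak markers summed to 3.99 to 6.19 CPM early and 7.27 to 9.4 CPM late. Primitive endoderm markers there summed to 27.6 to 31.1 and 31.4 to 41.5 CPM. On stiff gels, fibroblast markers summed to 53.8 to 61.2 CPM early and 35 to 42.9 CPM late. Stem cell markers there summed to 2830 to 2880 and 2910 to 2950 CPM. The part of these marker lists in the changes was not tested. The count on soft gels was 4 without the third soft library at 48 h, when Spry2 and Spred2 passed as well, each with a change under 0.2 on the log2 scale. Spred2 had a log2 fold change of 0.14 ± 0.05 (edgeR adjusted p = 0.0553), and DESeq2 called it (adjusted p = 0.0428). It also passed without the third soft library at 24 h (0.17, edgeR adjusted p = 0.0372) or without the first or the third at 48 h (0.18 and 0.16, edgeR adjusted p = 0.0287 and 0.0464). Time and pool were not separate on soft gels, where the 48 h libraries came from another pool. With a pool term Spred1 was called in 20 of 45 assignments on soft and in 45 of 45 on stiff gels, and Spry4 in 0 on soft gels.

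The 3 genes closest in pattern to each member were found by the correlation of group mean log2 CPM over the 11 groups, among 11228 genes. These groups fall into a cluster with and a cluster without PD03, so the correlation mostly reads that difference. It gave Robo4, Gbx2 and Etv4 for Spry4 and Robo4, Soga3 and Gbx2 for Spry2. For Spred1 it gave Glt1d1, Enpp3 and Zfp532, and for Spred2 Rfc5, Pdzd4 and Pla2g1b. Spry1 was closest to Tle4, Psors1c2 and Sssca1, and Spred3 to Sned1, Ehbp1l1 and Gm32856. By rank correlation, at most 1 of the 3 genes was again among the closest.

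Over the 7 groups without PD03, the Pearson correlation between pairs of the 6 genes ranged from -0.509, for Spred2 and Spred3, to 0.621, for Spry2 and Spry4. It was 0.617 for Spry1 and Spry4 and 0.477 for Spry4 and Spred1. For 5 of the 6 genes, the closest genes over these groups were Noc3l (r = 0.999) for Spred1, Samm50 (0.977) for Spred2, Nbeal2 (0.967) for Spry1, Ppm1a (0.967) for Spry4 and Haus7 (0.94) for Spry2. The groups share pools and scaling, and these values are a description. Members were left out of the search.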

How the data were processed

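Raw read counts per Ensembl gene were deposited by the authors as whole numbers without normalisation, in a table of 49671 genes and 36 libraries, of which 13380 genes had no count. Reads had been aligned to GRCm38 with STAR 2.5.2a and counted with HTSeq, per the labels and the methods of the study. The strand setting is not given in the sources used here. Libraries were prepared with a NuGen kit.

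Columns carried the name of their group and no replicate number, so a library number is only a name in column order. Pool identifiers came from the sample descriptions. Of the 3 pools, the first held all 24 h and plastic libraries and 1 of 3 stiff libraries in serum + LIF at 48 h, the second the other stiff 48 h libraries and 2 of 6 soft libraries in serum + PD03, and the third the other soft 48 h libraries.

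The tests used edgeR 4.0.16 under R 4.3.3. After filterByExpr by group (17702 genes with 99.92% of counts) and TMM scaling, 1 quasi-likelihood model with a coefficient per group was fitted over all libraries, and 22 contrasts were tested with glmQLFTest. P-values were adjusted over all tested genes by the Benjamini-Hochberg method, with a threshold of 0.05. The SE is the absolute log2 fold change divided by the root of the F statistic, and 95% intervals are 1.96 SE to either side. CPM used TMM-scaled library sizes. Alternatives were DESeq2 1.42.0, its size factors within edgeR, no filter, a fit of the compared groups only, a pool term and the omission of each library. The scripts were tested on simulated counts.

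Positions and exon lengths came from GENCODE M21, and promoters from RefSeq. The members and lists were chosen with earlier results of these data known. All members were described in every group, and list genes past the threshold in a soft against stiff or PD03 comparison could be named. Similar genes were the 3 with the highest Pearson correlation and at least 5 CPM in a group mean. Some results are not reported here.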

Additional observations from a re-analysis of the deposited data

Results flagged for a closer look

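The substrate difference of Spry2 differed between media without and with PD03 in the absence of LIF, by 0.418 on the log2 scale in a test of the difference itself (edgeR adjusted p = 0.0168). The soft against stiff difference was -0.07 ± 0.06 (SE) in serum and 0.35 ± 0.07 in serum + PD03. In serum + PD03, 6 of 6 soft libraries were above all 3 stiff libraries.

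In serum + PD03 on soft gels, the highest library for Spred2 stood apart at 89.1 CPM, while the other 5 lay between 80.5 and 82.8 CPM. That library held 10405696 counts, the fewest of all libraries. In its group it was also the lowest for Spry1 (4.455 CPM) and Spry2 (18.5 CPM) and the highest for Spry4 (1.356 CPM). Soft gels in serum + PD03 were the one group with more than 3 libraries, so 6 genes were looked at in this way, and chance singles out about 1 in 20.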

How the results depend on the processing

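No paired analysis was possible because the columns of the count table carry no replicate number. All 24 changes with PD03 kept their direction and passed the threshold under every alternative tried: DESeq2 size factors, DESeq2, no filter, the compared groups only, the pool term in 45 assignments, and the omission of each library. On soft gels with LIF and on stiff gels without LIF, both groups came from a single pool. The pool term could not move those fold changes and so was no check of them. Counting only the lowest and the highest pool-term value of each fold change, 555 alternative values of fold changes called in at least 1 fit kept their direction and side of the threshold, 30 lost the call, 20 gained it and 7 changed sign. Over all 45 assignments, 53 of the 2070 pool-term values of these 46 fold changes changed sign. The lowest pool-term values changed sign between soft and plastic for Spry1 (-0.388), Spry4 (-0.171) and Spred2 (-0.000889), and over time on soft gels for Spry1 (-0.445), Spry2 (-0.122), Spry4 (-0.198) and Spred2 (-0.0238). Of the 132 member fold changes, 86 were called in no fit, and 100 of their 1242 alternative values, counted in the same way, changed sign, 63 without 1 library, 35 with a pool term and 2 otherwise. Over all 45 assignments, 495 of their 3870 pool-term values changed sign. The 2070 and the 3870 values both include comparisons within a single pool, where the term could not move the fold change.

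The number of members called between soft and stiff gels was 0 at the lowest with a pool term in serum, 0 to 2 in serum + PD03 with that term. In serum + LIF + PD03 it was 1 without the filter, 0 in the compared groups only and 0 at the lowest with a pool term. Between soft and plastic it was 1 in the compared groups only and 0 to 1 with a pool term, and between stiff and plastic 0 at the lowest with a pool term. For LIF on stiff gels without PD03 it was 1 without the filter, by DESeq2 and at the highest with a pool term. Over time on soft gels it was 0 at the lowest with a pool term. For the interaction of stiffness and PD03 it was 2 by DESeq2 and 0 to 2 with a pool term without LIF, and 1 at the highest with a pool term with LIF. Without 1 library it ranged from 1 to 2 in serum + PD03. The range was 0 to 1 in serum + LIF + PD03, 1 to 2 between soft and plastic, 0 to 1 for LIF on stiff gels, 1 to 4 over time on soft gels and 0 to 2 for the interaction without LIF. The cause of these shifts was not tested. Counts of list genes were unchanged or within 1.5 times in 1008 alternative values. In 132 they moved further or went to or from 0. Spry4 with PD03 rested on at most 28 counts per library, which limits its fold changes most.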
